A study of Mus musculus with 4 samples.

Results

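Olfactory receptor genes (symbols starting with Olfr) were examined for sequence variants in the exomes of 4 mouse leukaemias, and 844 variant sites were found in them, of 49315 confident sites on the same chromosomes. A site was counted when it lay inside an Olfr gene body of the GRCm38 gene table, on an autosome other than chromosome 17, and when both variant callers, SpeedSeq and VarScan2, listed the same position and bases. The minimum in both was 10 reads, 3 of them with the variant, and an allele fraction (variant reads divided by depth) of 0.1, and the SpeedSeq quality had to reach 20. The 844 sites comprised 818 single-nucleotide variants (SNVs) and 26 insertions or deletions (indels). The DNA came from c-Kit-positive leukaemia cells, c-Kit being a receptor of blood stem and progenitor cells, taken from the bone marrow of moribund mice on the C57BL/6 background. All mice carried the genotype label E2-KO, an activated Nras allele (Nras-G12D) together with knockout of Ezh2, the histone methyltransferase of Polycomb repressive complex 2. These 4 samples form a single group, with no control and no matched normal tissue, so that inherited and acquired variants cannot be told apart. The sources used here give neither the promoter or Cre behind either allele, nor the age of the mice, nor whether animals were pooled. Replicates 1 to 4 are numbered in the order of their listing, and a p over them reflects the spread among these samples alone, part of which may be technical. DNA holds no marker expression, so the cell type label could not be checked. The same single confident change in Nras stood at an allele fraction of 0.478, 0.454, 0.311 and 0.427 in replicates 1 to 4, and Ezh2 held no confident variant in any of them, which does not bear on a deletion of exons.

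Olfactory receptors are G protein-coupled receptors that detect odorants in the cilia of olfactory sensory neurons. They form the largest gene family of the mouse, most of them have an uninterrupted coding exon, and they lie in tandem clusters that arose by duplication, so that neighbours can be nearly identical and many copies are pseudogenes. Each olfactory neuron expresses a single receptor allele, and expression of these genes in the leukaemia cells was not measured here. Reads from such families are harder to place than reads from single-copy genes, and the mapping quality of the variant reads is therefore given throughout: the mean mapping quality, abbreviated MQM, is a Phred-scaled score with a highest value of 60 in these files.

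The gene table held 1428 Olfr genes, of which 64 lay on chromosome 17 and 8 on X or Y, leaving 1356 (1053 protein-coding, 1 of another type and the rest pseudogenes). Neighbouring Olfr genes less than 1 Mb apart were joined into 59 clusters, 22 of them with at least 10 genes.

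A few start sequences show what the calls look like in the genes themselves. The first 50 bases of each gene are given 5′ to 3′ on the gene's strand from RefSeq (GRCm38.p6), with the base that a confident SNV replaces in capitals, and positions are counted from 1 at the first base of the gene body. Olfr331 was chosen because its SNV lies in the start codon, Olfr1377 because its SNV was present in all 4 samples, and Olfr525 and Olfr532 because they are near-copies that carry SNVs at matching places.
Olfr331: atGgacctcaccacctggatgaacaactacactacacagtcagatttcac
Olfr1377: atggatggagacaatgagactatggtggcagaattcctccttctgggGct
Olfr525: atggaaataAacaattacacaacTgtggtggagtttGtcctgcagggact
Olfr532: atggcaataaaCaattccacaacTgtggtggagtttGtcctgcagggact

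The Olfr331 stretch lies at chr11:58502523-58502572 on the minus strand, and G3A changes the last base of its ATG. This SNV had allele fractions of 0.473 in replicate 1 (425 reads) and 0.496 in replicate 2 (331 reads), with a mean MQM of 48.0, and was not called in the other two samples. In Olfr1377 (chr11:50984703-50984752, plus strand) G48A stood at 0.482, 0.582, 0.839 and 0.986 in replicates 1 to 4, at depths of 137 to 146 reads. Its fraction thus ranged from near 0.5 to near 1 between samples, a pattern also seen in the chromosome 11 clusters at 49.1 and 51.0 Mb below. The starts of Olfr525 (chr7:140322701-140322750, plus strand) and Olfr532 (chr7:140419722-140419771, minus strand) agreed at 48 of 50 bases; from Olfr525 to Olfr532 they differed by A5C and A17C. Both genes had an SNV at position 24 (T24A in Olfr525, T24C in Olfr532) and the identical G37C, and each had another one before these, A10T in Olfr525 and C12T in Olfr532. In Olfr525 the fractions were between 0.2 and 0.246. No Olfr SNV counted here had a fraction under 0.2, although the minimum set was 0.1. Which caller sets this limit was not tested. In Olfr532 the fractions were 0.318 to 0.548. The mean MQM of these 6 SNVs was 46.0 to 53.7.

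Replicates 1 to 4 held 780, 708, 479 and 130 Olfr variants (524 ± 292, SD, n = 4), made up of 762, 693, 467 and 122 SNVs and 18, 15, 12 and 8 indels. Replicate 4 thus had the fewest, and the number in replicate 1 was 6 times as high. All confident variants on these chromosomes numbered 31897, 29760, 30036 and 19775 in replicates 1 to 4, also fewest in replicate 4. The Olfr variants were 2.45%, 2.38%, 1.59% and 0.657% of them. At a depth of at least 100 in both callers the mean was 344. The variants fell in 145, 125, 93 and 27 of the 1356 Olfr genes, or 10.7%, 9.22%, 6.86% and 1.99%. Among 18553 other protein-coding genes on these chromosomes, 15.9%, 15.4%, 16.2% and 11.6% held a confident variant in replicates 1 to 4. Over all samples 153 Olfr genes (11.3%) were hit, beside 25.5% of the other genes. Gene bodies differ in length (a median of 945 bases for Olfr genes) and in how much of them the capture covers, so these shares describe the calls and not a rate per base.

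Olfr SNVs were covered more deeply than SNVs in other genes, with a median depth of 153, 138, 160 and 110.5 reads in replicates 1 to 4 beside 52, 44, 54 and 54. The depths of single Olfr SNVs ranged from 10 to 809 reads. The bodies of other genes include introns, and captured and uncaptured stretches were not separated. The comparisons of depth, mapping quality and caller agreement with other genes therefore set unlike stretches beside each other. The comparisons with other genes, and those of allele fraction by mapping quality within a cluster, were therefore repeated at a depth of at least 100, and the value is given where it moved by over 1.5 times; the other comparisons were not repeated in this way.

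The variants were concentrated in few clusters. Of the 59 clusters 14 held any variant, and 8 held 831 of the 844 sites (98.5%). In these 8 clusters 145 of 259 genes were hit. The other 6 clusters with a call held 13 sites. No confident variant in any sample was found in 11 clusters of at least 10 genes, 578 genes together, where at most 8 positions in a sample were listed by either caller at any quality. The chromosome 2 cluster at 85.3–90.4 Mb, with 293 genes the one with the most, held 1 SNV, in Olfr1065 in replicate 3. A position without an entry cannot be told from one without coverage in these files.

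**Figure D1:**
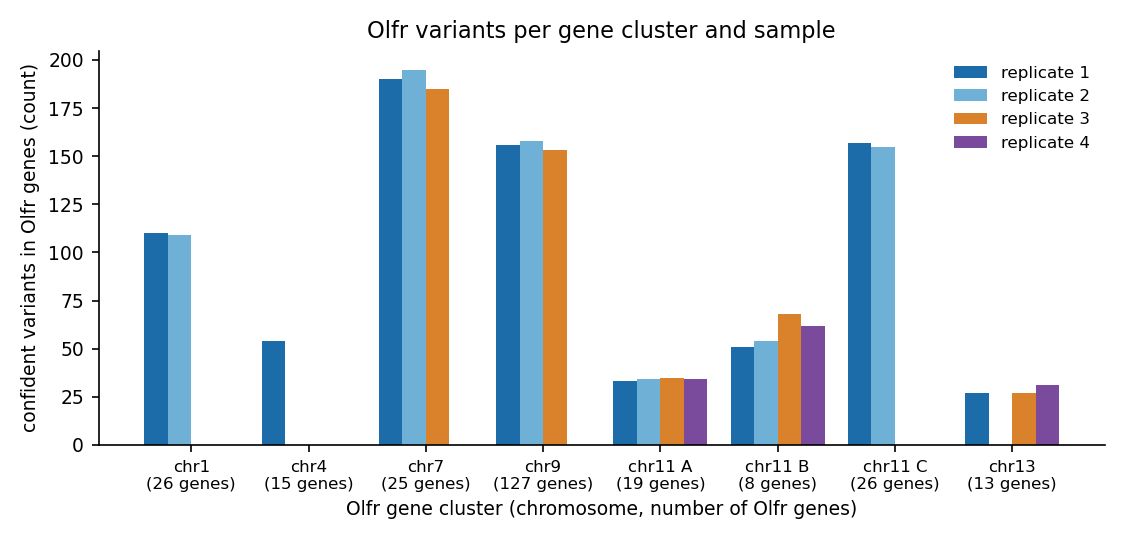
Number of confident Olfr variants (vertical axis) in each of the 8 clusters with at least 20 sites (horizontal axis; chr11 A, B and C start at 49.1, 51.0 and 58.5 Mb), with a bar per sample. Samples that share a cluster have similar counts, from 185 to 195 in the chromosome 7 cluster, while other samples have none there.

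Each of the 8 clusters with at least 20 sites held at least 27 variants in a given sample or none. On chromosome 1 (173.0–174.4 Mb, 26 genes) replicates 1 and 2 had 110 and 109 variants, and replicates 3 and 4 had none. The chromosome 4 cluster (118.7–118.9 Mb, 15 genes) held 54 variants in replicate 1 alone. On chromosome 7 (140.2–140.7 Mb, 25 genes) replicates 1 to 3 had 190, 195 and 185 variants, and on chromosome 9 (37.7–40.2 Mb, 127 genes) they had 156, 158 and 153; replicate 4 had none in either. Chromosome 11 carried 3 such clusters. The cluster at 49.1–49.6 Mb (19 genes) held 33, 34, 35 and 34 variants in replicates 1 to 4, and the cluster at 51.0–51.1 Mb (8 genes) held 51, 54, 68 and 62. The cluster at 58.5–59.6 Mb (26 genes) held 157 and 155 variants in replicates 1 and 2 and none in replicates 3 and 4. On chromosome 13 (21.1–21.7 Mb, 13 genes) replicates 1, 3 and 4 had 27, 27 and 31, and replicate 2 had none. In the samples without a confident variant in one of these 8 clusters, either caller listed at most 1 position there at any quality.

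Density per gene differed between the clusters. The 51.0 Mb cluster of chromosome 11 had 9.0 sites per Olfr gene and the chromosome 7 cluster 8.04, whereas the chromosome 9 cluster had 1.28. In the chromosome 9 cluster 41 of 127 genes were hit (32.3%), beside 57.9% to 88.5% in the other 7. Along its length the sites were uneven: its steps of 0.5 Mb held 39, 37, 20, 7 and 59 sites, in 10, 7, 7, 4 and 13 genes, although each step had 23 to 28 genes.

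Sharing between samples followed the clusters. Of the 844 sites 113 were confident in 1 sample, 289 in 2, 362 in 3 and 80 (9.48%) in all 4. Replicates 1 and 2 shared 676 sites, 83.3% of those found in either. Replicate 3 shared 54.5% with replicate 1 and 55.2% with replicate 2. Replicate 4 shared 13.6% with replicate 1, 11.1% with replicate 2 and 24.5% with replicate 3. Within a cluster that both samples carried, the overlap was higher: replicates 1 and 2 had 95.5% of sites in common on chromosome 1, 92.5% on chromosome 7 and 93.8% on chromosome 9. The lowest overlaps within a cluster were in the 51.0 Mb cluster of chromosome 11, at 75% (replicates 1 and 3) to 81.0% (replicates 1 and 2).

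Per sample, 10.1%, 11.1%, 16.5% and 63.1% of the Olfr SNVs of replicates 1 to 4 were confident in all samples, beside 28.1%, 29.4%, 28.4% and 45.7% in other protein-coding genes. The Olfr SNVs confident in all samples are the same 77 in each, so a sample's share is fixed by its number of Olfr SNVs. The shares of the other genes are set in the same way. Replicates 1 to 3 lay below the other genes and replicate 4 above them. The comparison over samples reflects these numbers of SNVs and not a separate property of a sample. At -7.69 ± 17 percentage points (SD, n = 4), the mean difference was smaller than its spread (exact two-sided sign-flip permutation test, p = 0.375, adjusted p = 0.45 over 6 comparisons). Without replicate 4 the difference was +20.2 points, without replicate 3 it was -17.8 and without replicate 2 it was -4.43. Leaving out a sample also changed the measure, to the share confident in the 3 samples that remained. Without replicate 4 that share was 65.1% for Olfr SNVs and 44.9% for the others. With all 4 samples the difference was -16.9 points at a depth of at least 100, -11.9 with SpeedSeq alone and -3.12 against protein-coding genes within 2 Mb of an Olfr gene. With 4 samples this test cannot give a p below 0.125, so no comparison here could pass 0.05.

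Allele fractions formed levels by cluster and sample. The median over all Olfr SNVs was 0.464, 0.465, 0.389 and 1.0 in replicates 1 to 4. The medians of the large clusters were 0.418 to 0.496 in replicates 1 and 2, which carried 8 and 6 of them. In replicate 3 the clusters of chromosomes 7, 9 and 13 had medians of 0.368, 0.373 and 0.368, and the 49.1 and 51.0 Mb clusters of chromosome 11 had 0.787 and 0.724. In replicate 4 the median was 1.0 in each of the 3 clusters with at least 20 variants. The same chromosome 11 clusters thus stood near 0.45 in replicates 1 and 2, near 0.75 in replicate 3 and at 1.0 in replicate 4. The chromosome 15 cluster (98.2–98.5 Mb, 12 genes) had 7 SNVs in replicate 3 alone, in Olfr286, Olfr287 and Olfr288, with a median of 0.807.

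**Figure D2:**
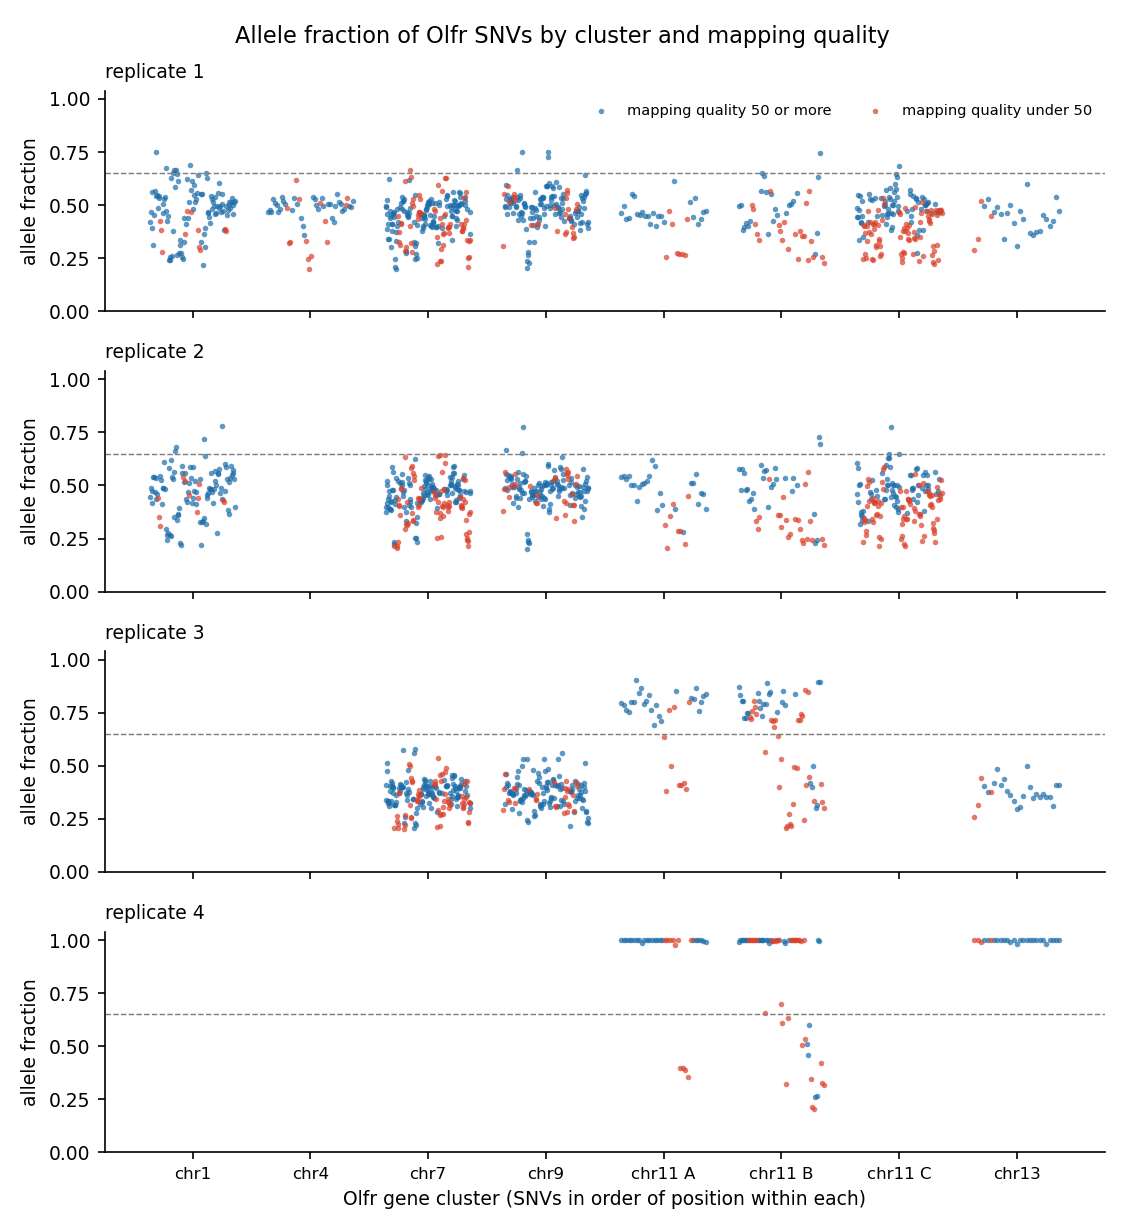
Allele fraction of every confident Olfr SNV (vertical axis) by cluster, in order of position within the cluster (horizontal axis), with a panel per sample and colour for mean mapping quality; the dashed line marks 0.65. In replicates 3 and 4 the chromosome 11 clusters at 49.1 Mb (chr11 A) and 51.0 Mb (chr11 B) lie mostly above the line, and the points below it are mostly of mapping quality under 50.

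SNVs whose fraction reached 0.65 are called upper-range. They made up 1.71%, 1.44%, 16.3% and 83.6% of the Olfr SNVs of replicates 1 to 4, and 22.8%, 22.8%, 28.1% and 58.4% of those in other genes. The mean difference was -7.25 ± 22.1 points (exact sign-flip permutation test, p = 0.625, adjusted p = 0.625), with 3 samples below 0 and replicate 4 above it. It was -18.1 points without replicate 4, and -2.64 and -2.54 points without replicates 1 and 2.

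Olfr SNVs more often rested on reads of uncertain placement. The share with an MQM under 50 was 29.9%, 32.5%, 30.0% and 39.3% in replicates 1 to 4 (exact 95% intervals from 25.9% to 48.6%), and 9.49%, 8.87%, 7.16% and 11% in other protein-coding genes. Every Olfr share was above every share of the other genes. This is a mean difference of 23.8 ± 3.32 points (higher in 4 of 4 samples; exact sign-flip permutation test, p = 0.125, the smallest it can give, adjusted p = 0.25). The intervals cover counting error only, and SNVs of a cluster are linked, so they are not independent draws. At a depth of at least 100 the difference was 15.4 points, and at an MQM threshold of 59 it was 36.2.

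The excess lay in the middle of the scale. An MQM of 30 to under 40 was found for 14.9% ± 2.77 of Olfr SNVs (SD, n = 4) and 3.05% ± 0.50 of the others, and 40 to under 50 for 15.3% ± 0.69 and 2.92% ± 0.33. Under 30 the shares were 2.69% ± 2.06 and 3.16% ± 0.83, so that with a threshold of 30 the difference was -0.468 points. At 59 or more stood 50.3% ± 4.26 of the Olfr SNVs and 86.5% ± 1.85 of the others. The vomeronasal receptor genes (Vmn1r and Vmn2r), another large family of chemoreceptors in tandem arrays, had 57.6%, 57.5%, 54.6% and 70.9% of SNVs under 50; their difference from the Olfr genes was not tested.

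**Figure D3:**
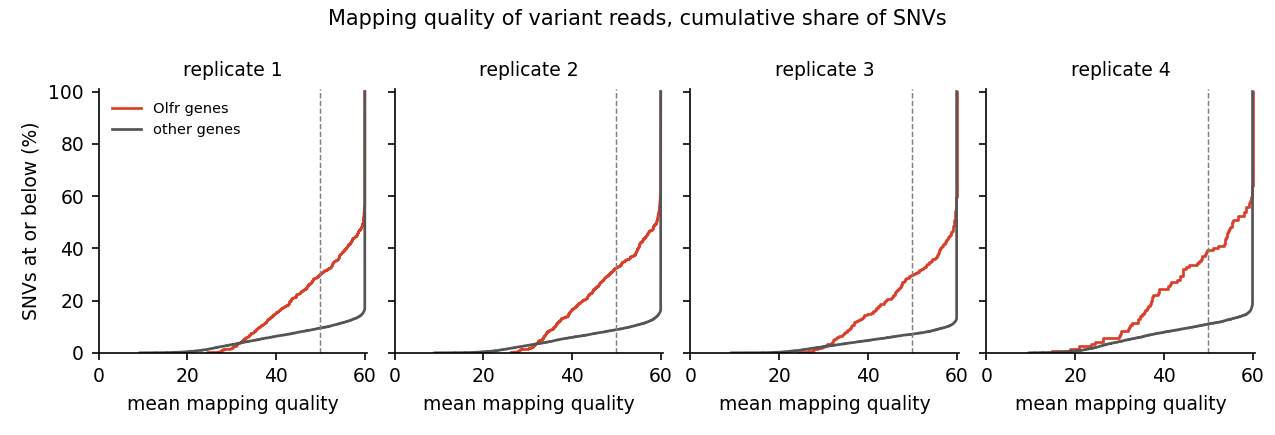
Cumulative share of confident SNVs (vertical axis, percent) at or below each mean mapping quality of the variant reads (horizontal axis), for Olfr genes and other protein-coding genes in each sample; the dashed line marks 50. In all 4 panels the Olfr curve rises between 30 and 59, while 84.8% to 89.1% of the SNVs in other genes stand at 59 or more.

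Mapping quality differed between clusters and genes. In replicate 1 the share of SNVs with an MQM under 50 was 10% in the chromosome 1 cluster, 17.6% on chromosome 9, 32.3% on chromosome 7, 47.9% in the 51.0 Mb and 51.9% in the 58.5 Mb cluster of chromosome 11. Of the 153 genes hit, 91 had every site at 50 or more, and 36 had a median under 50. Among genes with at least 5 sites, the lowest medians were those of Olfr51 (33.2), Olfr318 (33.3), Olfr54 (35.3), Olfr326-ps1 (35.7) and Olfr331 (36.2), all on chromosome 11.

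Likeness between gene starts was set beside mapping quality as a description. The first 50 bases of 608 Olfr genes with a coding-length model (a body whose length is a multiple of 3 and that begins with ATG in RefSeq) were compared with each other. Copies outside these 608 were not compared, so the lowest class can hold genes that have a near-copy. Olfr331 is in it at 54% identity, although Olfr329, which has no such model, carries the beginning of the Olfr331 sequence. Where the nearest other start was at least 90% identical, 37 of 87 SNVs had an MQM under 50 (42.5%, exact 95% interval 32.0 to 53.6%). Where it was 80 to under 90% identical, 21 of 48 had (43.8%, 29.5 to 58.8%), and where it was under 80% identical, 50 of 157 had (31.8%, 24.6 to 39.7%). SNVs of the same gene are not independent draws: Olfr532 and Olfr525 held 28 and 10 of the 87. Counted by gene, a median MQM under 50 was found for 3 of 14, 3 of 8 and 8 of 34 genes with a site in these classes. Across the 39 such genes with at least 3 sites, Spearman's rho between identity and median MQM was -0.37; the genes share libraries and clusters, and no p is given.

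Within a cluster, SNVs of low mapping quality had lower allele fractions. This comparison was chosen after the values had been seen. In 17 combinations of a cluster and a sample with at least 10 SNVs in each class, the median fraction at an MQM under 50 was below that at 50 or more in 15, with differences from -0.34 to 0.0032. Averaged over clusters, the medians were 0.396 and 0.490 in replicate 1, 0.414 and 0.487 in replicate 2, 0.429 and 0.586 in replicate 3, and 0.998 and 1.0 in replicate 4. The mean difference was -0.0814 ± 0.0641 (lower in 4 of 4 samples; exact sign-flip permutation test, p = 0.125, the smallest it can give). At a depth of at least 100 it was -0.179. The median depth of the low class was the higher one in 16 of the 17 combinations, and its reference reads had the lower mapping quality in 16.

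The chromosome 11 cluster at 49.1 Mb in replicate 3 showed the widest gap. There the 10 SNVs under 50 had a median fraction of 0.460 at a median depth of 362.5 reads, and the 25 SNVs at 50 or more had 0.8 at 89 reads. In the 58.5 Mb cluster of replicate 1 the medians were 0.379 (81 SNVs, 205 reads) and 0.5 (75 SNVs, 102 reads). The chromosome 9 cluster of replicate 2 had 0.491 and 0.488, the one combination with the higher median in the low class.

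**Figure D4:**
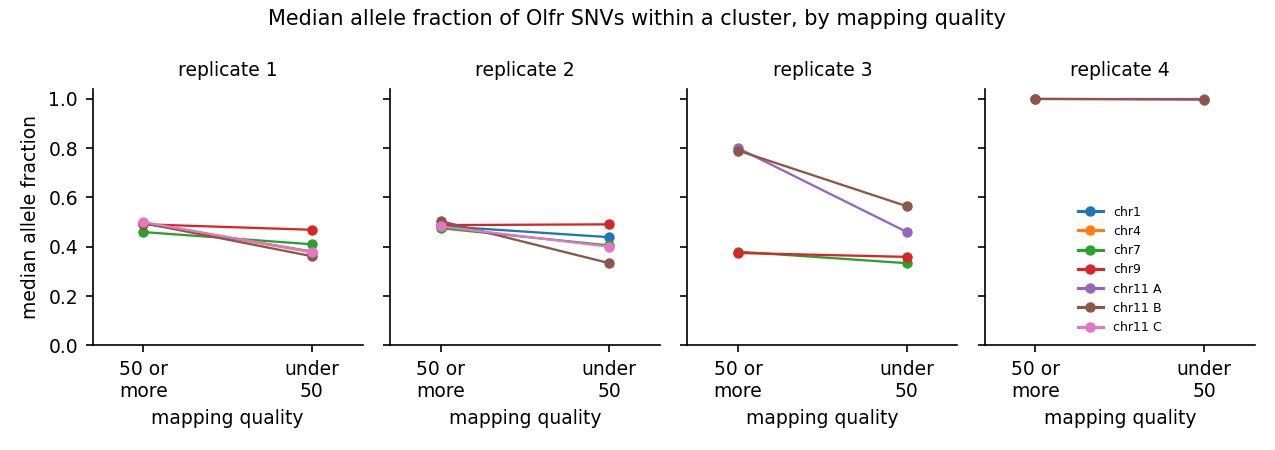
Median allele fraction (vertical axis) of Olfr SNVs with a mean mapping quality of 50 or more and under 50 (horizontal axis), with a line per cluster (chr11 A, B and C as those at 49.1, 51.0 and 58.5 Mb) and a panel per sample. Lines fall to the right in 15 of the 17 cases and are nearly flat in replicate 4.

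Some SNVs stood below the level of their cluster. In clusters whose SNVs of MQM 50 or more had an upper-range median, which occurred in replicates 3 and 4 only, SNVs under a fraction of 0.65 made up 57.8% of the low class and 9.26% of the high class in replicate 3, and 31.3% and 6.85% in replicate 4. The high class also sets the level, so its own share is low by construction. The mean difference of 36.5 ± 17.1 points rests on 2 samples (exact sign-flip permutation test, p = 0.5, the smallest p that 2 samples allow). The genes with most such SNVs were Olfr1375 (11 in replicate 3 and 13 in replicate 4), Olfr51 (7 and 2) and Olfr1392 (4 and 4). In Olfr1375, 6 of the 11 and 8 of the 13 had an MQM under 50. In every other gene all of them had, so the lower SNVs of the high class all lay in Olfr1375.

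Olfr1392, at 49.1 Mb on chromosome 11, had 5 SNVs, all present in all 4 samples. At position 49294204 the fraction was 0.434, 0.450, 0.801 and 1.0 in replicates 1 to 4, the level of the cluster. At 49293445 it was 0.273, 0.285, 0.410 and 0.397. The other 3 had fractions like the second, 0.224 to 0.285 in replicates 1 and 2 and 0.355 to 0.420 in replicates 3 and 4. The median depth of these 4 lower SNVs was 611 reads in replicate 3 and 670 in replicate 4, against 89 and 82 for the SNVs of MQM 50 or more in the cluster.

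Olfr1375 (chr11:51048109-51049050), a protein-coding gene with 18 sites, held both kinds side by side. Of the 153 genes hit it was the one with an SNV of MQM 50 or more that was upper-range in all 4 samples: the T-to-A change at 51048923 had 0.746, 0.695, 0.895 and 0.996. The G-to-A change at 51048228 had 0.243, 0.249, 0.409 and 0.508, and its mean MQM was 31.8. A deletion of 1 base (T) at 51048968 had 0.368, 0.344, 0.436 and 0.576 at depths of 215 to 314 reads, with a mean MQM of 59.9. In replicate 4, where the cluster median was 1.0, the sites of this gene thus ranged from 0.204 to 1.0. Of the 18 sites 11 were confident in all 4 samples.

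Olfr51 (chr11:51006974-51007897) lies in the same cluster and had 10 SNVs. Its SNVs at 51007070, 51007195 and 51007734 had fractions of 0.473 to 0.559 in replicates 1 and 2, 0.788 to 0.853 in replicate 3 and 0.989 to 1.0 in replicate 4, with a mean MQM of 55.4 to 60. Another 5 SNVs between 51007328 and 51007397 were confident in replicate 3 alone, at 0.207 to 0.271 and a mean MQM of 27.9 to 35.3. No counted Olfr SNV had a fraction under 0.2, so the same SNVs under that limit in the other samples would not be counted. Olfr54 (chr11:51027004-51027945) had 4, 4, 6 and 7 SNVs in replicates 1 to 4, and their median fractions were 0.356, 0.269, 0.716 and 1.0, over sets that differ between samples.

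Full mapping quality did not always go with a single level. Olfr418 (chr1:173270147-173271137, protein-coding) had 20 SNVs in each of replicates 1 and 2, with an MQM, averaged over both samples, of at least 58.4 at each. In replicate 1, 12 of them had fractions of 0.239 to 0.377 and 8 had 0.449 to 0.664; in replicate 2, 13 had 0.219 to 0.396 and 7 had 0.530 to 0.679. On either side of 0.4, a value chosen after they were seen, 12 SNVs were below in both samples, 7 above in both and 1 differed. The median depth was 129 and 112.5 reads.

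The gene with the most sites was Olfr532 (chr7:140418842-140419771), with 28 SNVs in its 930 bases, or 30.1 per kb. Replicates 1 to 3 had 27, 25 and 27 of them, with median fractions of 0.460, 0.422 and 0.343 and median depths of 163, 130 and 163 reads. Olfr1379-ps1 (chr11:50959009-50959948), a pseudogene, followed with 22 sites, 16 of them in all 4 samples, and medians of 0.423, 0.479, 0.774 and 1.0. Olfr320 (chr11:58683875-58684795) had 20 SNVs at a median MQM of 40.4 and medians of 0.379 and 0.369 in replicates 1 and 2. The median gene with a variant had 4 sites, 34 genes had 1, and the 27 genes with at least 10 held 374 of the 844 sites.

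Confidence across carriers also differed by mapping quality when the clusters were pooled, but not in every cluster. In the 7 large clusters carried by at least 2 samples, 469 of 504 SNVs with an MQM of at least 50 were confident in every sample that carried the cluster (93.1%, exact 95% interval 90.5 to 95.1%), and 210 of 254 SNVs under 50 were (82.7%, 77.5 to 87.1%). The chromosome 11 cluster at 51.0 Mb had 24 of 30 and 21 of 38. On chromosome 1 all 12 SNVs under 50 were complete, and 95 of 100 of the others. On chromosome 9 these counts were 27 of 29 and 114 of 125, and on chromosome 13 all 4 and all 23 were complete. SNVs of a cluster are linked, so the intervals cover counting error only.

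Of the sites in 1 sample, 85 were private, which means that neither caller listed the position at any quality in the other 3 samples. With an MQM of at least 50 and a depth of at least 20, replicate 1 had 36 private SNVs in 11 genes of the chromosome 4 cluster, with a median fraction of 0.498 and a range of 0.358 to 0.553. Olfr1329 (chr4:118916524-118917465) held 8 of them and Olfr1332-ps1 (chr4:118854092-118855045) 7; Olfr1337 followed with 4, and Olfr62, Olfr1328 and Olfr1341 had 3 each. Replicate 3 had 7 in the chromosome 15 cluster, at 0.745 to 0.839, and Olfr287 (chr15:98202311-98221056) held 4 of these. Outside these 2 clusters there were 3 private SNVs of this quality: 1 on chromosome 9 in replicate 1 at 0.263, 1 on chromosome 2 in replicate 3 at 0.347 in Olfr1065, and 1 on chromosome 7 in replicate 3 in Olfr498. The last, T46A, stood at 0.647 with 385 reads and an MQM of 60 in a cluster of 80 genes with no other confident variant.

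Codon positions could be read for the 292 SNVs in 53 genes with a coding-length model. Position 3, where many changes leave the amino acid as it is, held 180 of them (61.6%, exact 95% interval 55.8 to 67.2%), position 1 held 70 (24.0%) and position 2 held 42 (14.4%). The share at position 3 was 60.3% at an MQM of at least 50 and 63.9% under 50. By sample it was 63.3%, 64.3%, 60.6% and 47.1% in replicates 1 to 4, the last from 16 of 34 SNVs, with an interval of 29.8 to 64.9%. It was 70.4% in the chromosome 7 cluster (88 of 125) and 35.0% in the 51.0 Mb cluster of chromosome 11 (7 of 20, 15.4 to 59.2%). By position along the gene the SNVs were even, with 95, 99 and 98 in the first, middle and last parts of equal length. The amino acids themselves were not derived here.

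**Figure D5:**
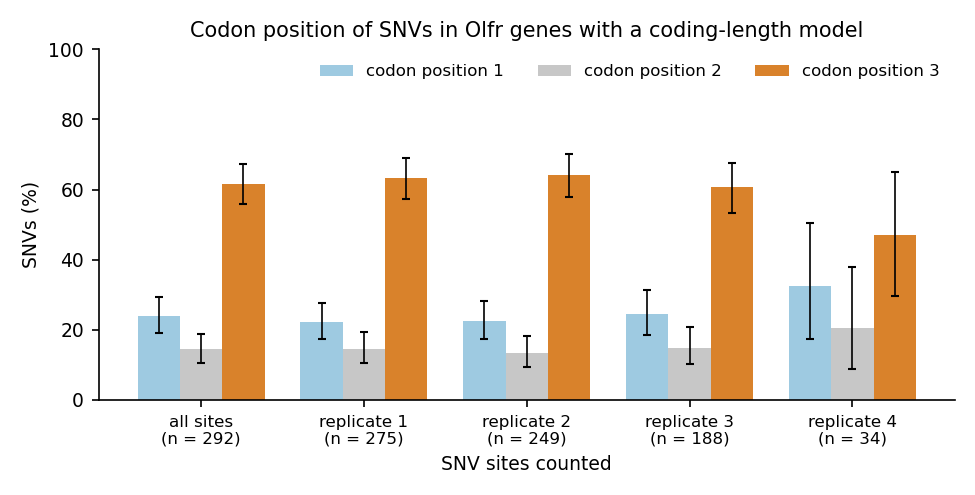
Share of Olfr SNVs (vertical axis, percent) at codon positions 1, 2 and 3 in genes with a coding-length model, for all sites and for each sample (horizontal axis); error bars are exact 95% binomial intervals. Position 3 holds most SNVs in replicates 1 to 3, and the intervals of replicate 4, with 34 SNVs, overlap.

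The substitution types of Olfr genes and other genes differed by less than the spread between samples. Transitions (changes between A and G or between C and T) made up 72.6%, 73.2%, 72.6% and 72.1% of Olfr SNVs in replicates 1 to 4 and 72.2%, 72.2%, 72.9% and 71.7% of those in other genes. The mean difference was 0.361 ± 0.507 points (exact sign-flip permutation test, p = 0.25, adjusted p = 0.375), and its direction changed with the processing. It was 2.27 points with VarScan2 alone, 1.46 with protein-coding Olfr genes only and 0.836 at a depth of at least 100. In protein-coding Olfr genes 510 of 689 SNV sites were transitions (74.0%), and in Olfr pseudogenes 74 of 115 (64.3%).

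Agreement between the callers was higher for Olfr SNVs than for others in each sample. Among SpeedSeq SNVs that passed depth, reads, fraction and quality, VarScan2 listed 99.2%, 98.3%, 98.3% and 93.1% in Olfr genes and 95.4%, 94.3%, 97.2% and 85.7% in other genes. The difference was 4.12 ± 2.58 points (higher in 4 of 4 samples; exact sign-flip permutation test, p = 0.125, adjusted p = 0.25). At a depth of at least 100 it was 1.51 points.

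Indels were the smaller part of Olfr variants. Their share was 2.31%, 2.12%, 2.51% and 6.15% in replicates 1 to 4, beside 10.9%, 12.1%, 11.5% and 13.6% in other genes, whose bodies include introns. The difference was -8.72 ± 1.05 points (lower in 4 of 4 samples; exact sign-flip permutation test, p = 0.125, adjusted p = 0.25). At a depth of at least 100 it was -2.65 points, with values from -4.48 to 1.07 in single samples, so it was not below 0 in each. Of the 26 indel sites 12 lay in protein-coding Olfr genes and 14 in pseudogenes. Any variant was held by 129 protein-coding Olfr genes (12.3%) and 23 pseudogenes (7.62%), and the indels stood beside 689 SNVs in the former and 115 in the latter. Indels whose length is not a multiple of 3 numbered 9 in protein-coding genes and 12 in pseudogenes, and 17 of the 26 changed 1 base. Such a length shifts a reading frame only inside coding sequence, and the gene bodies used here do not show where that lies.

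The longest indels had lengths that are multiples of 3, and whether they lie in coding sequence was not derived. Olfr924 lost 18 bases, GCTGTCATCATCTCTTAT on the plus strand at chr9:38848742, with fractions of 0.415, 0.389 and 0.319 in replicates 1 to 3 and a mean MQM of 58.6. Olfr331, whose start codon change is printed above, also lost 12 bases, GTGGATTGGTAT at chr11:58502386, with fractions of 0.354 and 0.401 in replicates 1 and 2, but at a mean MQM of 29.2. Olfr535 gained 6 bases, GTGGAG, at the last coordinate of its body, chr7:140493578, with 0.315 and 0.296 in replicates 1 and 2.

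Indels whose length is not a multiple of 3 were found in all 4 samples in 3 genes. Besides the deletion in Olfr1375, Olfr1376-ps1 gained 2 bases, with fractions of 0.467, 0.525, 0.768 and 0.975, and Olfr1372-ps1 gained 1 base, with 0.451, 0.490, 0.816 and 0.952. Both pseudogenes followed the level of chromosome 11 in each sample, and the protein-coding Olfr1375 deletion lay below it in each.

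A pair of deletions of 1 base, an A and 3 bases further a G, appeared in 2 neighbouring genes of the chromosome 13 cluster, in replicate 4 alone. In the pseudogene Olfr1369-ps1 (at 21116125 and 21116128) they were carried by 34 of 35 reads. In Olfr263, a protein-coding gene (at 21133208 and 21133211), they were carried by 98 of 367 and 98 of 373 reads. The mean MQM was 34.2 in the former and 33.0 in the latter.

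Other genes of the olfactory system were counted beside the receptors. Of 22 genes of olfactory signalling and receptor choice on these chromosomes, 4, 5, 4 and 6 held a confident variant in replicates 1 to 4, and 7 in any (Ano2, Cngb1, Ebf1, Gnal, Kdm1a, Pde1c and Pde4a), beside the 25.5% of other genes given above. Gnal encodes the G protein alpha subunit of the odour response, Cngb1 a subunit of its cyclic nucleotide-gated channel and Ano2 the chloride channel that amplifies it. No variant was found in the 16 trace amine-associated receptor (Taar) genes, which sense amines in the nose. Among 545 Vmn1r and Vmn2r genes 69, 55, 70 and 58 were hit in replicates 1 to 4, with 537, 515, 507 and 397 variants. Their counts ranged less between samples than the 780 to 130 of the Olfr genes, a difference that was not tested.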

How the data were processed

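Per the labels' protocols, exome DNA of 4 samples was captured with an Agilent SureSelect mouse exon kit and sequenced on the BGISEQ500 platform with paired reads 100 bases long. The authors deposited, for each sample, a SpeedSeq variant file made by freeBayes 0.9.21 against mm10 and, per the file headers, with call quality given as a score on the Phred scale, and VarScan2 tables of SNVs and indels. Depth, variant reads and mean mapping quality (MQM) come from the SpeedSeq file. The sources used here name no aligner, duplicate treatment or VarScan2 version. Calls were trimmed to their shortest form, matched between callers and placed in gene bodies of the RefSeq table of GRCm38.p6, which gives no exons. The reference base of 308 of 308 Olfr SNVs in the RefSeq start windows matched the files, 26 of 26 in the first 50 bases. Other protein-coding genes on the same chromosomes served for comparison. Differences between the gene classes, taken within each sample, had an exact two-sided sign-flip permutation test over the samples (16 sign patterns) with Benjamini-Hochberg adjustment over 6 comparisons. Shares have exact (Clopper-Pearson) 95% intervals, which cover counting error only. Genes were named by rule: the most sites, upper-range SNVs or indels not a multiple of 3 in all samples, private SNVs, and the lowest median MQM. Members, lists and rules were chosen with earlier results of these data known; genes printed for their start sequence, indel length, lower fractions or a tie with a named gene were chosen after their values were seen. The steps were tested on simulated data. Software was Python 3.11.15 with pandas 2.3.3, numpy 2.4.6, scipy 1.17.1 and matplotlib 3.10.9. Alternatives were other quality, depth and MQM limits, each caller alone, split multi-base records, protein-coding Olfr genes only, nearby comparison genes, no calls within 10 bases of another, and leaving out each sample.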

Additional observations from a re-analysis of the deposited data

Results flagged for a closer look

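Of 24 per-sample quantities examined, 6 had 1 sample far from the other 3, and in each it was replicate 4, the sample with 130 Olfr variants; chance flags about 1 in 20 such groups, and these quantities share their SNVs. Its median allele fraction of Olfr SNVs was 1.0, beside 0.389 to 0.465 in the others. Its median MQM was 55.6, beside 59.1 to 59.7. Of its Olfr SNVs 63.1% were confident in all samples, beside 10.1% to 16.5%. These are the same 77 SNVs in each sample, so this flag restates its low number of Olfr SNVs. VarScan2 listed 93.1% of its SpeedSeq SNVs in Olfr genes, beside 98.3% to 99.2%. Indels made up 6.15% of its Olfr variants, beside 2.12% to 2.51%, and rest on 8 indels. The median fraction of its SNVs of low mapping quality, averaged over clusters, was 0.998, beside 0.396 to 0.429.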

How the results depend on the processing

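Under the alternatives tried, 3 results turned direction. The difference in the share of SNVs of low mapping quality was -0.468 points with a threshold of 30, and 15.4 to 36.2 under the other settings that moved it most (a depth of at least 100, chosen after seeing the data, and a threshold of 59). The difference in the transition share was -0.0056 points against genes within 2 Mb of an Olfr gene and -0.037 with multi-base records split. The difference in the share confident in all samples ranged from -17.8 to 20.2 points on leaving out each sample, with the latter without replicate 4. Leaving out a sample also changed which samples had to share an SNV, so these values measure another quantity. With all 4 samples the difference was -16.9 at a depth of at least 100, -11.9 with SpeedSeq alone and -3.12 against genes within 2 Mb. At a depth of at least 100 the mean number of Olfr variants was 343.75, the indel share difference -2.65 points, that of caller agreement 1.51 points and that of the fraction within a cluster -0.179, each a move of over 1.5 times. The causes were not tested. The means of the results not named as turned kept their direction under every alternative run, though single samples could differ, and no p could pass 0.05 with 4 samples. Gene classes were paired within each sample, and no comparison between groups of samples was possible because the series has a single group. No Olfr SNV under an allele fraction of 0.2 was counted, and the files do not show where coverage was too low to call.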
